A study of Mus musculus with 20 samples.

Results

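Keratins are the intermediate filament proteins of epithelial cells. A type I keratin pairs with a type II keratin to form the filament, and the pair in use marks the kind of epithelium: Krt8 with Krt18 in simple and luminal cells, Krt7 and Krt19 in ducts, and Krt5 with Krt14 in basal and myoepithelial cells. In the salivary gland, ducts carry the simple and ductal keratins, and the cells that lie on the basement membrane carry the basal pair. The 6 keratin genes that mark these layers were taken by symbol from the 55471 gene identifiers of the count table, through GENCODE M21. They were the type II genes Krt5, Krt7 and Krt8 and the type I genes Krt14, Krt18 and Krt19. All 6 were found, and 5 had enough reads to be tested; Krt5 did not.

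The RNA came from SIMS, a mouse salivary gland cell line grown in DMEM with serum, and the study asked how loss of Zcchc8 changes transcripts from genes and regulatory regions. ZCCHC8 is part of the NEXT complex, which passes short-lived nuclear RNA to the exosome for decay. There were 20 libraries in 5 groups of 4: unedited wild type, a Btbd7 knockout (KO) made with Cas9 as the negative control, and 3 Zcchc8 KO clones made with Cas9, called clones 1, 2 and 3. Each Zcchc8 KO group is 1 clone of the line, so a difference between clones cannot be told apart from clonal variation, and the labels do not say whether replicates were separate cultures, so the p-values measure the spread between these libraries, which may be technical. Counts upstream of promoters (PROMPT regions, promoter upstream transcripts, each named by its gene) covered 19 libraries, without wild-type replicate 1.

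The libraries held 6833258 to 17771804 counts in genes, and all 4 libraries of clone 1 lay at 7683444 or below. Wild-type replicate 1 stood apart, with 14245 genes detected where the other wild-type libraries had 17442 to 18791. Some of the keratin levels, tests and ratios that rest on it are also given below without it. The correlations and the tests of other genes include it. Btbd7 RNA was 200 ± 7.87 CPM (counts scaled to the TMM-adjusted depth of each library; SD, n = 4) in wild type and 98.5 ± 3.50 in the Btbd7 KO. Zcchc8 RNA was 64.4 ± 2.90 CPM in wild type and 60.9 ± 4.27, 23.5 ± 1.44 and 54.4 ± 4.90 in clones 1, 2 and 3. An edit need not lower the RNA of its gene, so these levels check the label in clone 2 and the Btbd7 KO and say little of clone 1.

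SIMS cells expressed the ductal and simple keratins together with Krt14, but almost no Krt5. Epcam and Cdh1, which define epithelium, averaged 355 and 394 CPM in wild type. Of the basal and myoepithelial markers, Itgb4, a subunit of the integrin that anchors basal cells, averaged 417 CPM, whereas Acta2 and Cnn1 of contractile myoepithelium had no count in any wild-type library. The mean level of Trp63, which encodes the basal transcription factor p63, was 2.40 CPM. Of 15 acinar genes, 11 had no count in wild type. Krt14 was therefore expressed with little of its usual partner Krt5, and without these contractile genes.

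Per kilobase of the principal transcript, the order in wild type was Krt18 at 668 ± 114 CPM (SD, n = 4), Krt8 at 379 ± 98.8, Krt7 at 274 ± 84.4, Krt14 at 186 ± 36.4, Krt19 at 144 ± 32.9 and Krt5 at 0.155. Krt18 stood above Krt8 by more than their spread. The mean ± SD ranges of Krt8 and Krt7, of Krt7 and Krt14, and of Krt14 and Krt19 overlapped, although the order from Krt18 to Krt19 was the same in each wild-type library. Without replicate 1 the wild-type means were 718.6, 422.8, 313.1, 198.5 and 157.5 CPM per kilobase for Krt18, Krt8, Krt7, Krt14 and Krt19, in the same order. The place of Krt7 depends on the length used: over merged exons it was 159 ± 49.0 CPM per kilobase, below the 179 ± 35.2 of Krt14. In clone 2, Krt19 reached 221 ± 13.5 CPM per kilobase of principal transcript, above Krt14 at 170 ± 16.9 and Krt7 at 197 ± 10.1. The 6 genes together took 3.29 of every 1000 gene counts in wild type (2.19 to 4.13, and 3.66 without replicate 1), 3.41 in the Btbd7 KO, 2.40 in clone 1, 2.91 in clone 2 and 2.34 in clone 3, and 84.5% to 88.5% of all keratin counts in wild type (87.5% to 88.5% without replicate 1).

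**Figure D1:**
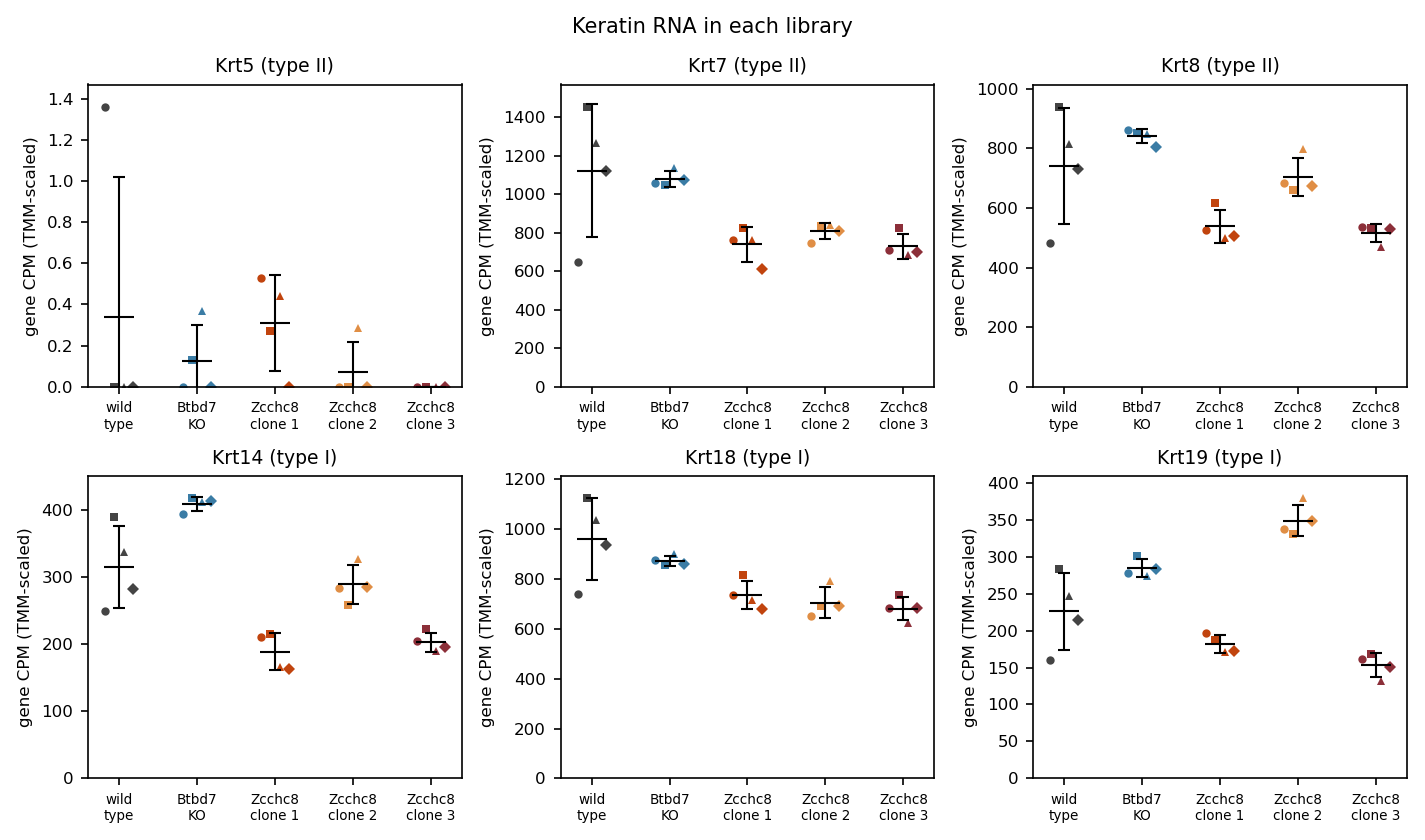
Level of each keratin RNA in CPM (TMM-scaled, linear axes from 0) in every library of the 5 groups; symbols mark replicates 1 (circle), 2 (square), 3 (triangle) and 4 (diamond), and bars give the mean and SD. Wild-type replicate 1 is the lowest wild-type library for Krt7, Krt8, Krt14, Krt18 and Krt19, and clone 2 holds the highest Krt19 values, from 331 to 379 CPM.

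In the mean of the 3 Zcchc8 KO clones, Krt7, Krt8, Krt14 and Krt18 RNA fell by a modest amount, although Krt8 and Krt14 were not called in clone 2, and Krt19 went opposite ways in different clones. As the mean of the 3 clones against wild type, Krt7 was 0.68-fold, Krt14 0.71-fold, Krt18 0.74-fold and Krt8 0.78-fold the wild-type level by edgeR's quasi-likelihood test. These 4 of 5 tested keratins were called lower (Benjamini-Hochberg adjusted p under 0.05 over all genes tested), where 17.7% of the 15296 genes tested were called lower and 17.7% higher, 35.4% in all. In bulk RNA, fewer cells making a transcript and less transcript per cell cannot be told apart. The clones share the wild-type libraries, so their comparisons are not independent of each other. Libraries of each keratin are set beside wild type below, and how many of all genes lack overlap was not counted.

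Krt7, a type II keratin of ducts, stood at 647, 1455, 1269 and 1121 CPM in wild-type replicates 1 to 4. It was 765, 826, 763 and 611 CPM in clone 1, 749, 834, 840 and 809 in clone 2, and 713, 827, 685 and 701 in clone 3. All 12 clone libraries lay below wild-type replicates 2 to 4, and 1 of them, in clone 1, lay below replicate 1 as well. The mean fell by 0.56 on the log2 scale (SE 0.11, edgeR adjusted p = 0.000246), with -0.60, -0.48 and -0.62 in clones 1, 2 and 3, all called. The clones were not called different from each other (largest difference 0.14, joint edgeR adjusted p = 0.708). In the Btbd7 KO, Krt7 was 1061, 1048, 1139 and 1076 CPM, inside the wild-type range.

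Krt8, the type II keratin of simple epithelium, stood at 481, 939, 815 and 729 CPM in wild type. Clone 1 held 527, 617, 500 and 507 CPM, clone 2 held 682, 659, 799 and 674, and clone 3 held 535, 531, 470 and 530. Clones 1 and 3 lay below wild-type replicates 2 to 4, while clone 2 overlapped them. The mean fell by 0.35 on the log2 scale (SE 0.09, edgeR adjusted p = 0.00472). Clones 1 and 3 were called at -0.46 and -0.52, clone 2 was at -0.07 (adjusted p = 0.675), and the clones were called different from each other by up to 0.45 (joint edgeR adjusted p = 0.0075). Without clone 2 replicate 3 that difference was 0.37 and not called (adjusted p = 0.0592).

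Krt18 pairs with Krt8 and lies beside it: on GRCm38 Krt8 occupies chr15:101996698-102004482 on the minus strand, and Krt18 chr15:102028180-102032027 on the plus strand, 23697 bases away. Krt18 stood at 741, 1124, 1035 and 939 CPM in wild type. In clone 1 it was 736, 816, 715 and 680 CPM, in clone 2 it was 650, 690, 792 and 692, and in clone 3 it was 684, 736, 622 and 685. Every library of clone 3, and 3 of 4 in each of clones 1 and 2, lay below every wild-type library. Its log2 fold changes were -0.38, -0.44 and -0.49 in clones 1, 2 and 3, all called, and the mean was -0.44 (SE 0.07, edgeR adjusted p = 2.13e-05). The clones were not called different (largest difference 0.11, joint edgeR adjusted p = 0.636).

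Krt14, the type I keratin of basal cells (chr11:100203162-100207548, minus strand), stood at 249, 390, 338 and 283 CPM in wild type. It was 211, 215, 166 and 163 CPM in clone 1, and 204, 222, 190 and 196 in clone 3, and these 8 libraries lay below every wild-type library. Clone 2 was at 285, 258, 328 and 286 CPM, inside the wild-type range. The log2 fold changes were -0.74 in clone 1 and -0.63 in clone 3, both called, and -0.12 in clone 2 (edgeR adjusted p = 0.4). The mean fell by 0.50 (SE 0.08, edgeR adjusted p = 4.28e-05), and the clones were called different by up to 0.61 (joint adjusted p = 8.06e-05).

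Krt19, the small type I keratin of ducts that lacks most of the usual tail (chr11:100140810-100148665, minus strand), stood at 161, 283, 247 and 215 CPM in wild type. It was 338, 331, 379 and 348 CPM in clone 2, above every wild-type library. Clone 1 held 197, 187, 170 and 172 CPM and clone 3 held 162, 169, 132 and 151, below wild-type replicates 2 to 4. Krt19 rose in clone 2 by 0.63 on the log2 scale (edgeR adjusted p = 6.24e-05) and fell in clones 1 and 3 by 0.32 and 0.56 (adjusted p = 0.0247 and 0.000297). The mean of the clones, -0.08 (SE 0.09, adjusted p = 0.483), joins opposite changes. The clones were called different by up to 1.19 (joint edgeR adjusted p = 4.38e-09).

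Read by clone, all 5 tested keratins were called lower in clones 1 and 3, where 16.8% and 14.4% of all genes tested were called lower. In clone 2, Krt7 and Krt18 were called lower and Krt19 higher, where 14.4% of all genes were called lower and 17.3% higher. The joint test called Krt8, Krt14 and Krt19 different between the clones, 3 of 5, where it called 28.3% of all genes.

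Krt5 (chr15:101707070-101712898, minus strand), the type II partner of Krt14, had 21, 0, 0 and 0 counts in wild type. It had 0 to 5 counts in each of the other 16 libraries and none in clone 3, where 3 counts would be 0.203 to 0.384 CPM. Its 21 counts in wild-type replicate 1 are the highest of the 20 libraries. It was too low for a test, and these limits cover counting error only.

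**Figure D2:**
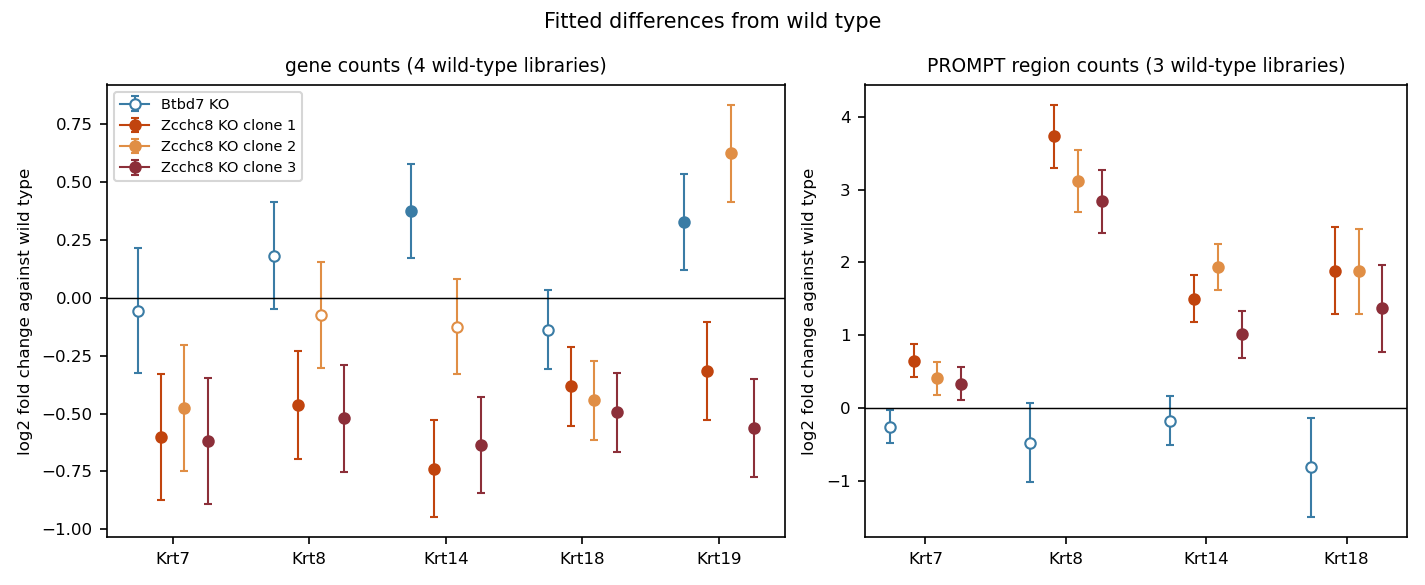
Fitted log2 fold change against wild type, with 95% intervals, for the keratin genes (left) and the PROMPT regions named by them (right) in the Btbd7 KO and Zcchc8 KO clones; filled points passed the edgeR threshold over all features tested. Krt19 gene counts go opposite ways in clone 2 (0.63) and clone 3 (-0.56), and all 12 clone points in the PROMPT panel lie above 0. In the mean of the clones, 40.2% of all PROMPT regions tested were called higher.

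The Btbd7 KO showed a different keratin pattern. Krt14 rose to 395, 417, 412 and 414 CPM, above every wild-type library (log2 fold change 0.38, SE 0.10, edgeR adjusted p = 0.013). Krt19 rose to 278, 302, 274 and 284 CPM, with 2 libraries inside the wild-type range (0.33, SE 0.11, edgeR adjusted p = 0.0347). Krt8 at 860, 851, 849 and 806 CPM and Krt18 at 876, 856, 900 and 859 CPM were not called (0.18 and -0.14). These 2 of 5 keratins called higher stand beside 8.01% of all genes called higher and 7.79% lower, 15.8% in all. Against the Btbd7 KO, all 5 tested keratins were called lower in the mean of the Zcchc8 KO clones, where 20.8% of genes were called lower: Krt14 by 0.88, Krt8 by 0.54, Krt7 by 0.51, Krt19 by 0.41 and Krt18 by 0.30 on the log2 scale. The Krt8, Krt14 and Krt19 values average over clones that were called different, and Krt19 in clone 2, at 331 to 379 CPM, lay above every Btbd7 KO library. The Btbd7 KO libraries differed little among themselves, with an SD of 40.6 CPM for Krt7 against 346 in wild type.

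Wild-type replicate 1 was the lowest wild-type library for all 5 tested keratins and sets much of that spread. Without it, the mean of the clones fell further, by 0.77 for Krt7, 0.52 for Krt8, 0.61 for Krt14 and 0.56 for Krt18, and Krt19 was then called lower as well (-0.23, edgeR adjusted p = 0.00252). In clone 2, Krt8 and Krt14 were then called lower (-0.25 and -0.23, adjusted p = 0.0047 and 0.0261). In the Btbd7 KO, Krt7 and Krt18 were then called lower (both -0.25, adjusted p = 0.0118 and 0.0036), Krt14 was at 0.28 (adjusted p = 0.0155) and Krt19 was no longer called (0.19, adjusted p = 0.0611). The shares of all genes called without replicate 1 are not given here, so these calls are not set beside them. Without wild-type replicate 4 instead, neither Krt14 nor Krt19 was called in the Btbd7 KO (adjusted p = 0.0582 and 0.0957), and without replicate 2 Krt8 was called higher there (0.32, adjusted p = 0.041). Leaving out any 1 Btbd7 KO library also ended the Krt19 call there (adjusted p = 0.0597 to 0.109), and the Krt19 call in clone 1 ended without wild-type replicate 2 or 3 or clone 1 replicate 3 or 4 (adjusted p = 0.0566 to 0.112). With each cell line as 1 sample, 3 clones against wild type and the Btbd7 KO, Krt7 alone was called lower, and Krt8, Krt14 and Krt18 had adjusted p = 0.135, 0.0959 and 0.0554. With only the 8 libraries of the groups compared in the fit, the calls of Krt8 and Krt19 in clone 1 (adjusted p = 0.0598 and 0.133), Krt7 in clone 2 (0.0887) and Krt14 and Krt19 in the Btbd7 KO (0.0719 and 0.191) were lost.

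Count ratios between keratins, within each library, were set side by side for the 5 groups. The ratio of Krt8 to Krt18 counts averaged 0.762 in wild type (0.65 to 0.836, and 0.777 to 0.836 without replicate 1), 0.73 in clone 1 (0.699 to 0.757) and 0.759 in clone 3 (0.722 to 0.783). It averaged 0.964 in the Btbd7 KO (0.938 to 0.994) and 0.997 in clone 2 (0.955 to 1.05), above every library of the other 3 groups. Without wild-type replicate 1, every clone 1 library lay below wild type. The ratio of Krt14 to Krt19 counts averaged 1.41 in wild type (1.32 to 1.55, and 1.32 to 1.38 without replicate 1), 1.44 in the Btbd7 KO, 1.33 in clone 3, 1.04 in clone 1 (0.948 to 1.15) and 0.828 in clone 2 (0.781 to 0.865). The sum of type II over type I counts per kilobase of principal transcript was 0.529 in wild-type replicate 1 and 0.675 to 0.701 in replicates 2 to 4. It was 0.66 to 0.686 in the Btbd7 KO, 0.599 to 0.636 in clone 1, 0.622 to 0.642 in clone 2 and 0.631 to 0.649 in clone 3. By this length, all 12 clone libraries lay below the Btbd7 KO and wild-type replicates 2 to 4 and above wild-type replicate 1. The separation depends on the length used. Over merged exons the ratio was 0.552 to 0.571 in clone 2 and 0.57 in wild-type replicate 3. From counts without a length it was 1.19 to 1.22 in clone 3 and 1.21 to 1.25 in the Btbd7 KO. These ratios are within a library and do not depend on scaling between libraries, and they were not tested.

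**Figure D3:**
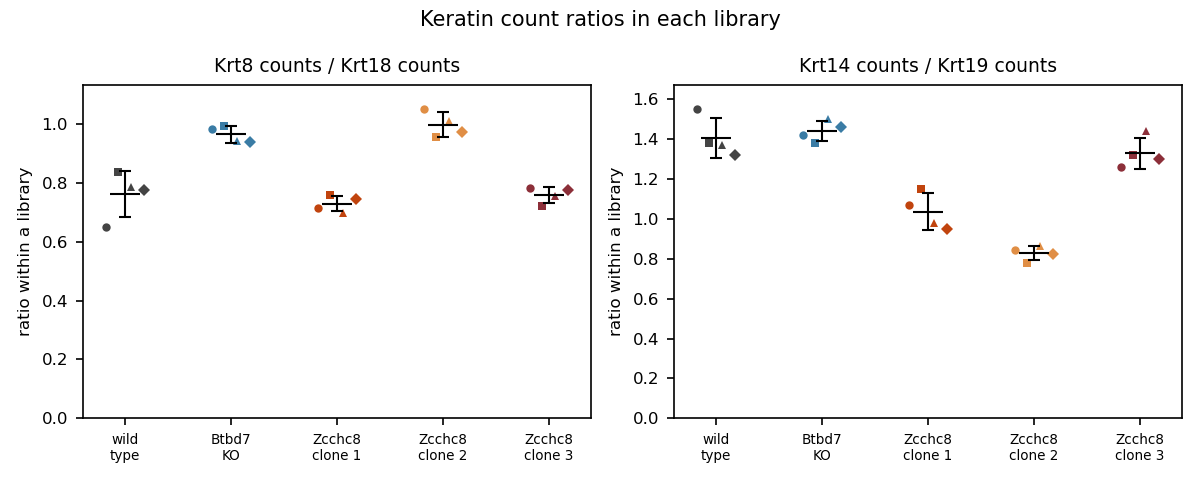
Ratio of Krt8 to Krt18 counts (left) and of Krt14 to Krt19 counts (right) within each library, by group, with mean and SD; symbols mark replicates 1 (circle), 2 (square), 3 (triangle) and 4 (diamond). The Btbd7 KO and clone 2 lie above the other groups on the left, and clone 2 lies lowest on the right at 0.781 to 0.865.

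In the mean of the clones, changes upstream of Krt8, Krt14 and Krt18 went the other way and were larger than those of the gene. Upstream of Krt7 the log2 rise of 0.46 (SE 0.10) was close to the gene's fall of 0.56 (SE 0.11). In clone 1 the Krt7 rise was 0.65 and the fall 0.60. The gene values include wild-type replicate 1 and the upstream values do not. Without it the Krt7 gene fell by 0.77, and these sizes were not compared by a test. PROMPTs are short transcripts made upstream of active promoters, usually antisense to the gene, and the nuclear exosome degrades them. The PROMPT regions of Krt7, Krt8, Krt14 and Krt18 had enough reads to be tested, and all 4 were called higher in the mean of the clones and in each clone. Among the 17655 PROMPT regions tested, 40.2% were called higher in the mean, and 39.8%, 36.1% and 36.9% in clones 1, 2 and 3. How many of all regions had no clone library overlapping wild type was not counted. With libraries scaled by their gene counts, the mean gave 7097 regions called higher and 560 lower (92.7% of calls higher); scaled within the PROMPT table it gave 5108 and 3921 (56.6% higher). None of the 4 was called in the Btbd7 KO by edgeR, where 3.05% of regions were called in either direction. The log2 fold changes there were -0.26 for Krt7, -0.48 for Krt8, -0.18 for Krt14 and -0.82 for Krt18. Their edgeR adjusted p-values were 0.237, 0.402, 0.662 and 0.211.

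The Krt8 region changed most. It held 3.60, 1.39 and 1.57 CPM in wild-type replicates 2 to 4 and 2.02, 0.594, 1.48 and 2.36 in the Btbd7 KO. The clones held 24.6, 30.5, 37.0 and 27.4 CPM in clone 1, 20.7, 19.4, 17.9 and 20.1 in clone 2, and 15.9, 15.9, 16.8 and 15.8 in clone 3. No clone library overlapped a wild-type or Btbd7 KO library. The mean was 9.39-fold higher (log2 3.23, SE 0.20, edgeR adjusted p = 1.4e-21), and the clones were called different by up to 0.89 (joint adjusted p = 0.000145), in a test added after seeing the data that called 11.0% of all regions. As a share of Krt8 gene counts the region rose from 0.257% in wild type to 5.61%, 2.80% and 3.13% in clones 1, 2 and 3. The lincRNA gene Gm36026 (chr15:102004212-102009442, plus strand) starts inside Krt8, overlaps it by 271 bases and runs away from it upstream. Its own counts rose from 0.777 to 1.71 CPM in wild type to 4.37 to 11.9 CPM across the 12 clone libraries (log2 2.45, SE 0.26, edgeR adjusted p = 5.8e-08). The PROMPT table gives no coordinates and the counting strand is not given in the sources used here, so reads that Gm36026, Krt8 and the PROMPT region share cannot be separated.

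In the clones, Krt18 had fewer upstream counts than Krt8. Its region held 1.43, 1.47 and 1.92 CPM in wild type, 5.12 to 6.81 in clone 1, 4.71 to 7.10 in clone 2 and 2.90 to 5.03 in clone 3. Every clone library was above every wild-type library (mean 3.28-fold, log2 1.71, SE 0.27, edgeR adjusted p = 1.94e-07), and the clones were not called different (joint adjusted p = 0.301). Krt14 had 6.12, 6.68 and 6.24 CPM upstream in wild type, 13.1 to 23.2 in clone 1, 22.9 to 25.9 in clone 2 and 11.6 to 13.9 in clone 3 (mean 2.80-fold, log2 1.48, SE 0.14, adjusted p = 1.17e-13). Its clones were called different by up to 0.93 (joint edgeR adjusted p = 6.01e-06). Clone 2, whose Krt14 gene counts were inside the wild-type range, held the highest Krt14 upstream counts on average.

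The Krt7 region was the most abundant and changed least. It held 24.5, 29.2 and 30.4 CPM in wild type, 36.8 to 51.4 in clone 1, 33.7 to 38.5 in clone 2 and 33.1 to 37.7 in clone 3, with no overlap. It rose by 0.46 on the log2 scale (SE 0.10, edgeR adjusted p = 6.33e-05), which is close to the median of all tested PROMPT regions, 0.456, when libraries are scaled by their gene counts. Scaled within the PROMPT table, the median of all regions was 0.00624, and Krt7 was at 0.03 in the mean (adjusted p = 0.817), 0.16 and 0.02 in clones 1 and 2, and -0.09 in clone 3, none called, so its direction depends on the scaling. In clone 3 the call also ended without wild-type replicate 2 or clone 3 replicate 1 (adjusted p = 0.121 and 0.0514). The other 3 regions kept their calls under both scalings. The Krt19 region had no count in wild type and 2, 10, 12 and 8 counts in clone 2, 7, 5, 0 and 3 in clone 1, at most 2 in clone 3 and the Btbd7 KO, and the Krt5 region had 0 to 5 counts in every library; neither was tested.

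**Figure D4:**
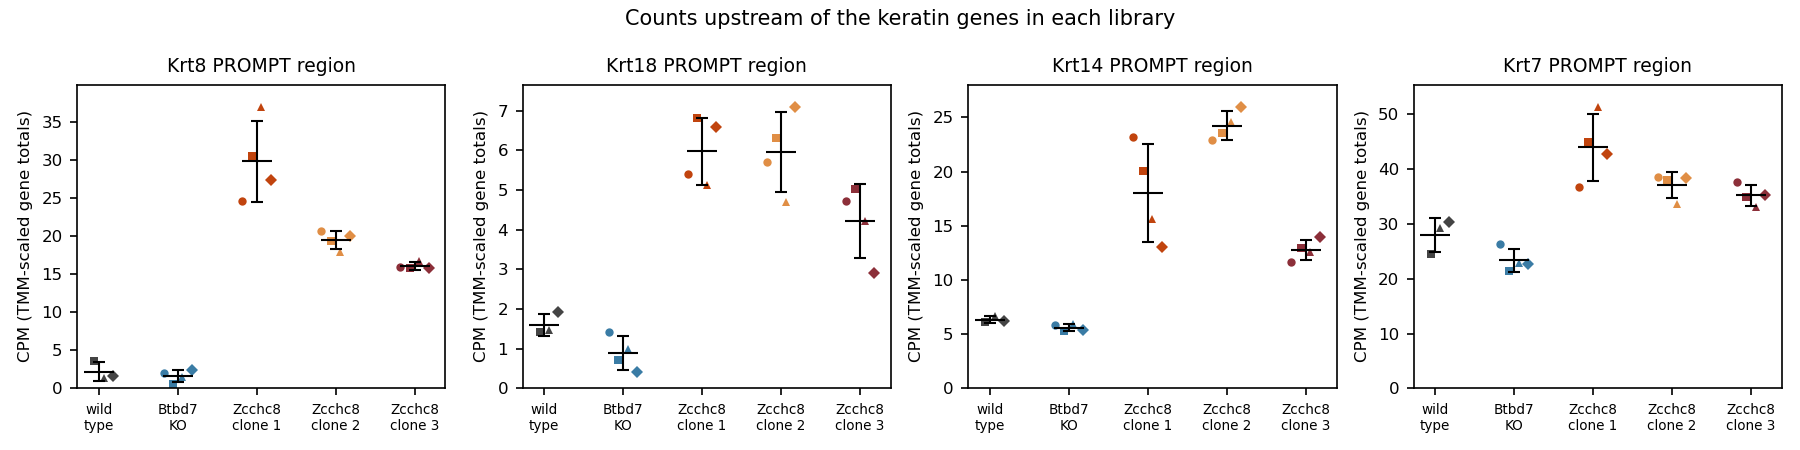
Counts upstream of Krt8, Krt18, Krt14 and Krt7 in CPM scaled by gene totals (linear axes from 0) in each library, with mean and SD; wild type has replicates 2 (square), 3 (triangle) and 4 (diamond) only, and circles are replicate 1 of the other groups. All clone libraries lie above wild type in each panel, by most for Krt8 (15.8 to 37.0 against 1.39 to 3.60 CPM). How many of all PROMPT regions are separated in this way was not counted.

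The promoters of Krt8, Krt18 and Krt7 are shown to set their sequences side by side. In the mean of the clones, Krt8 and Krt18 had the largest upstream changes and Krt7 the smallest. Krt18 was close to Krt14 there (log2 1.71, SE 0.27, and 1.48, SE 0.14), and lower than Krt14 in clone 2 (1.88 against 1.94). The sequences are RefSeq windows on GRCm38.p6, from 250 bases before to 50 after the RefSeq start, 5′ to 3′ on the gene's strand. Matched motifs are in capitals. Krt8 is at chr15:102004293-102004592 (minus strand), Krt18 at chr15:102027966-102028265 (plus strand) and Krt7 at chr15:101412153-101412452 (plus strand).
Krt8: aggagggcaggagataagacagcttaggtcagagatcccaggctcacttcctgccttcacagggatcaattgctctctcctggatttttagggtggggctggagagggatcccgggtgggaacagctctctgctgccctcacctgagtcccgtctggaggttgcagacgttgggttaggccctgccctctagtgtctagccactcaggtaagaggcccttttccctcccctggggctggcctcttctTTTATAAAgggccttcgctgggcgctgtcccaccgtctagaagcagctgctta
Krt18: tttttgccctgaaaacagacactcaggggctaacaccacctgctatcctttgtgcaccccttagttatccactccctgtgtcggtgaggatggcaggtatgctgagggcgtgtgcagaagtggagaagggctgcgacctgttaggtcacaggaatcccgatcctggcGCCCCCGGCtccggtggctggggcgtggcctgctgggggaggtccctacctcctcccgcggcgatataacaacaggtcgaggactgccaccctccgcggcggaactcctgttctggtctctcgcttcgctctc
Krt7: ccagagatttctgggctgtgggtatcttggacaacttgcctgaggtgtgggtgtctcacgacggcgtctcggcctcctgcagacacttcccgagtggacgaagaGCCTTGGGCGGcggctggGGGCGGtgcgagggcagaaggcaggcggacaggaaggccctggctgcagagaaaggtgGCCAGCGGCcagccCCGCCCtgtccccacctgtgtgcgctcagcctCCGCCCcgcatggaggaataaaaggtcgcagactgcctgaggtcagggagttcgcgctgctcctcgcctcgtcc
Motifs were searched on both strands. The letters of the TATA box core were TATAAA. Those of the GC box were GGGCGG. For the AP-1 motif they were TGANTCA. For the AP-2 motif they were GCCNNNGGC. The core of the CAAT box was CCAAT. Krt8 holds the TATA box core on both strands in overlapping matches that start 3 and 1 bases before the RefSeq start; 13.6% of 32851 promoter windows of this length hold it. Krt7 holds 4 GC boxes, starting 141, 128, 56 and 24 bases before its start, and 2 AP-2 motifs, 1 of which overlaps a GC box. Krt18 holds 1 AP-2 motif. Of all windows, 35.7% hold the GC box, 16.6% the AP-2 motif, 7.81% the AP-1 motif and 37.4% the CAAT box core; the last pair were found in none of the keratin windows. The GC content was 66.3% for Krt7, 61.3% for Krt18 and 58% for Krt8. The RefSeq start lies inside the GENCODE gene by 140 bases for Krt8, 36 for Krt18 and 1360 for Krt7. The Krt7 window thus lies within its GENCODE gene and may not cover the start of the counted transcripts. The Krt14 window, with a RefSeq start 1518 bases inside the GENCODE gene, has the same limit and is not shown. Krt19 was not matched in the promoter table.

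Outside the 6 genes, few keratins were expressed at a level that could be tested. Of 48 other keratin symbols, 19 had no count, 24 had counts too low for a test, and 5 were tested. Krt80, a type II keratin, fell in the mean of the clones by 0.62 on the log2 scale (edgeR adjusted p = 6.4e-10), from 330 ± 33.2 CPM in wild type to 224, 215 and 206 in clones 1, 2 and 3, and it fell in the Btbd7 KO by 0.35 (adjusted p = 0.000258). Krt17, a type I keratin of basal and stressed epithelium, fell by 0.23 (edgeR adjusted p = 0.0128), with 144 ± 26.5 CPM in wild type. Krt17 was called lower in clones 1 and 3 but not in clone 2 (-0.10, edgeR adjusted p = 0.404). Krt10, of differentiating epidermis, rose by 1.47 (adjusted p = 0.00645) from a level of 1.07 CPM. Krt13 was at -0.34 (adjusted p = 0.0681) and Krt16 at -0.13 (adjusted p = 0.87). These means join unlike clones. Krt13 was called lower in clones 1 and 3 (-0.67 and -0.73, edgeR adjusted p = 0.00735 and 0.00366) and was at 0.38 in clone 2 (adjusted p = 0.0994). Krt16, at 1.75 CPM in wild type, was at 1.07, 0.07 and -1.52 in clones 1, 2 and 3, none called. The joint edgeR test called the clones different for both (adjusted p = 2.05e-05 and 0.0136). The median of the 5 was -0.23, beside 0.02 over all genes tested.

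Genes that anchor or accompany keratin filaments did not move as 1 group in the mean of the clones. Of 15 tested keratin partners and desmosome genes, 4 were called higher and 4 lower, with a median of -0.01, where 17.7% of all genes were called in each direction. Plec, which links keratin to hemidesmosomes, averaged 1256 CPM in wild type, and Dsp, which links it to desmosomes, 794 CPM. Dsp was at -0.01 in the mean (edgeR adjusted p = 0.909), which joins a rise of 0.32 in clone 2 (adjusted p = 0.000122) and a fall of 0.25 in clone 3 (adjusted p = 0.00179), and it fell by 0.58 in the Btbd7 KO (adjusted p = 1.05e-07). Sfn, a 14-3-3 protein that binds keratins, rose by 0.61, and Pkp4, a plakophilin, fell by 0.48; both were called in all 3 clones. Sfn rose as much in the Btbd7 KO (0.61, edgeR adjusted p = 0.0234), where Pkp4 was at -0.02 (adjusted p = 0.836). In clone 2, 8 of these 15 genes were called higher and 2 lower, with a median of 0.21 beside 0.04 over all genes, where 17.3% of all genes were called higher and 14.4% lower. Of 4 tested filament genes outside the keratins, 1 was called lower; Vim of mesenchyme averaged 0.355 CPM in wild type, and the lamins Lmna and Lmnb1 226 and 105.

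Of 17 tested ductal or luminal markers, 3 were called higher and 4 lower in the mean of the clones, with a median of 0.07, again beside 17.7% of all genes in each direction. Tjp1, of tight junctions, fell by 0.44 and Slc12a2, the chloride uptake transporter, by 1.00. In the Btbd7 KO, Tjp1 was at -0.03 (edgeR adjusted p = 0.779) and Slc12a2 fell by 0.58 (adjusted p = 2.46e-06); Slc12a2 was lower in the clones than in the Btbd7 KO by 0.42 (adjusted p = 1.87e-06). Of 12 tested basal or myoepithelial markers, which include Krt17, 1 was called higher and 5 lower (median -0.14); in clone 2 the counts were 5 higher and 2 lower (median 0.20), and in clones 1 and 3 they were 1 and 0 higher and 7 and 5 lower. Over all genes, the shares called higher were 17.7% in the mean and 18.3%, 17.3% and 14.5% in clones 1, 2 and 3, and those called lower were 17.7% and 16.8%, 14.4% and 14.4%. Trp63 and Ehf, singled out after their values were seen, were high in clone 2. Trp63 stood at 23.2, 20.4, 20.4 and 19.6 CPM there, against 1.29 to 3.44 in wild type and 0.409 to 5.13 in clones 1 and 3 (log2 3.10 against wild type, edgeR adjusted p = 6.65e-08). Ehf, an epithelial ETS factor, stood at 16.7 to 22.9 CPM in clone 2 and at most 5.88 in any other library (log2 3.47, adjusted p = 2.96e-06). These stand beside the higher Krt19 of clone 2, and their part in it was not tested.

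Markers of other cell types were low apart from fibronectin. Of 15 mesenchymal genes, Fn1 made up nearly all of the summed level, which was 2830 to 3040 CPM in wild type, 5260 to 5630 in the Btbd7 KO and 3630 to 4240, 2420 to 3050 and 4720 to 5400 in clones 1, 2 and 3; of 8 tested, 2 were called higher and 2 lower in the mean of the clones and 5 higher and 2 lower in the Btbd7 KO, beside 17.7% of all genes each way in the clones and 8.01% and 7.79% in the Btbd7 KO. Next to Fn1, S100a4, Zeb1, Col1a1, Zeb2 and Col3a1 averaged 15.15, 13.3, 11.3, 4.75 and 3.11 CPM in wild type. Col3a1 fell in the mean of the clones by 3.83 on the log2 scale (edgeR adjusted p = 3.96e-08) and Col1a1 rose by 0.69 (adjusted p = 0.000198). Col1a1 rose by 1.12 and 1.01 in clones 2 and 3 and was at -0.06 in clone 1 (edgeR adjusted p = 0.827). In the Btbd7 KO both rose, Col1a1 by 0.67 and Col3a1 by 1.22 (edgeR adjusted p = 0.00328 and 0.0317). Pdgfrb, Dcn, Lum and Thy1 had no count in wild type. The summed level of 7 immune genes was 7.19 to 24.4 CPM over all libraries, of 6 endothelial genes 0.171 to 2.05 and of 6 neural genes 0 to 4.66, and Ptprc, Cdh5 and Sox2, which define these cells, had no count in wild type. Their part in the keratin results was not tested. Aqp5, the acinar water channel, was the acinar gene with the highest level at 176 CPM in wild type and fell by 0.40 in the mean of the clones (edgeR adjusted p = 1.74e-06). It fell further in the Btbd7 KO, by 0.68 (adjusted p = 7.62e-08), so the clones stood above the Btbd7 KO by 0.28 (adjusted p = 0.000201).

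Across the 20 libraries the keratins varied together to different degrees. Pearson's r of log2(CPM + 0.5) was highest for Krt8 with Krt14 (0.929) and Krt7 with Krt18 (0.926), and lowest for Krt18 with Krt19 (0.352); these are descriptions over libraries that fall in 5 groups. Among 8731 protein-coding genes with a mean of at least 10 CPM, the most alike in pattern were Lgals1 (0.943) and Txn1 (0.922) for Krt7, Mvk (0.928) and Jdp2 (0.926) for Krt8, Pitpna (0.956) and Myof (0.945) for Krt14, Ckap2 (0.91) and Rangap1 (0.877) for Krt18, and Dagla (0.945) and Prr13 (0.944) for Krt19. Dagla, the closest to Krt19, averaged 41.0 CPM in clone 2, 36.4 in the Btbd7 KO, 24.5 in wild type, 16.7 in clone 1 and 12.8 in clone 3, the same order of groups as Krt19.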

How the data were processed

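Per the labels' protocols, stranded libraries were made from total RNA (TRIzol, spin columns). Tables of unnormalized counts, by gene or PROMPT region, were deposited by the authors. STAR 2.7.3a and FastQC are named in the submitters' processing notes; the counter, the strand setting, the genome build and the reach of a PROMPT region are not given in the sources used here. Of 55471 gene identifiers, 55230 matched GENCODE M21 on GRCm38. Promoter sequences are RefSeq's, on GRCm38.p6, and 5 of the 6 keratins matched.

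Counts were filtered by group with filterByExpr, scaled by TMM and tested with edgeR 4.0.16 (R 4.3.3) in 1 quasi-likelihood fit over all groups, with p-values adjusted over all features and a threshold of 0.05. PROMPT counts used the gene table's library sizes and TMM factors. Simulated counts were used to check the scripts. The 3 clones were compared by a joint test with 2 degrees of freedom. Alternatives were DESeq2 1.42.0, other filters and scalings, equal depth, only the groups compared, a replicate block, cell lines as replicates, principal transcript length and each library left out. Libraries of a group differed beyond sampling noise (chi-square over its degrees of freedom, 2.84 to 76.1) and each counted as a replicate.

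The 6 keratins and the gene lists were chosen with earlier results of these data known. Named genes were the members, Zcchc8 and Btbd7, every other tested keratin, per list the 2 with the highest mean CPM and up to 4 called in all 3 clones in 1 direction, and per tested member the 2 most alike by Pearson's r of log2(CPM + 0.5); other names are described as values. 1 gene that this rule names is not reported here. Tables of other features were not used here.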

Additional observations from a re-analysis of the deposited data

Results flagged for a closer look

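In 4 of 41 groups of 4 libraries tested, 1 library stood far from the other libraries of its group by Dixon's ratio of gap to range, against its 95% critical value; chance flags about 1 group in 20. Krt8 gene counts were high in clone 2 replicate 3, at 799 CPM (ratio 0.836), and low in clone 3 replicate 3, at 470 CPM (ratio 0.92). The Krt7 PROMPT region was low in clone 2 replicate 3, at 33.7 CPM (ratio 0.908), and the Krt8 PROMPT region was high in clone 3 replicate 3, at 16.8 CPM (ratio 0.857). All of these were replicate 3 of their clone. Without clone 2 replicate 3, the largest Krt8 difference between clones was 0.37 and no longer called (joint edgeR adjusted p = 0.0592).

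The 3 Zcchc8 KO clones differed from each other under the same contrast by the joint edgeR test. The largest log2 differences between clones in gene counts were 0.45 for Krt8, 0.61 for Krt14 and 1.19 for Krt19. In PROMPT counts they were 0.89 for Krt8 and 0.93 for Krt14.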

How the results depend on the processing

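Of the keratin log2 differences recomputed under the alternatives, 1522 kept direction and side of the threshold, 26 lost the call, 7 gained it and 6 changed sign. The sign changes were all in values with no call, except for the Krt7 PROMPT region in clone 3, at -0.086 when scaled within the PROMPT table. With 1 library left out, Krt19 in the mean of the clones ran from -0.23 to 0.030, Krt8 in clone 2 from -0.25 to 0.046, Krt7 in the Btbd7 KO from -0.25 to 0.093 and the Krt8 PROMPT region in the Btbd7 KO from -0.70 to 0.10. The positive ends came without wild-type replicate 2; Krt7 in the Btbd7 KO was also positive, at 0.0045, without wild-type replicate 3.

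The number of keratins called fell from 4 to 1 in the mean of the clones with cell lines as replicates. That fit set the clones against wild type and the Btbd7 KO together, with log2 differences of -0.45, -0.69 and -0.39 for Krt8, Krt14 and Krt18. When only the groups compared entered the fit, the number called fell from 5 to 3 in clone 1 and from 2 to 0 in the Btbd7 KO. Leaving out 1 library gave 3 to 5 called in clone 2, with 5 without wild-type replicate 1, and 0 to 3 in the Btbd7 KO, with 0 without wild-type replicate 4. The shares of all genes called with 1 library left out are not given here. Without TMM, Krt19 in clone 1 was not called (adjusted p = 0.0562). The cause of these changes was not tested. Each of these fits other than the last also held fewer samples.

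Over all genes, the mean of the clones gave 2704 higher and 2713 lower calls (49.9% higher), against 3229 and 2005 (61.7% higher) without TMM and 939 and 141 (86.9% higher) with cell lines as replicates. Only the groups compared gave 1584 higher and 1490 lower in clone 1, 1395 and 1319 in clone 2, 1136 and 1228 in clone 3, and 577 and 645 in the Btbd7 KO, against 2793 and 2572, 2651 and 2196, 2221 and 2200, and 1225 and 1192. In PROMPT regions the Btbd7 KO gave 240 higher and 298 lower, and 157 and 182 without wild-type replicate 4. Computing TMM factors before the filter, chosen after seeing the data, gave 2474 and 3046 genes.

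The replicate numbers did not pair the libraries: of 40 pairs with the same number in wild type or an edited group, 2 had deviations correlated above 0.1 (r -0.0887 to 0.15), and 2 of 16 edited libraries were closest to the wild-type library of their number. With the replicate block, 4 keratins were called in the mean of the clones, 5, 3 and 5 in clones 1, 2 and 3, and 2 in the Btbd7 KO, as without it. The shares of all genes called with the block are not given here. Depth limits Krt5 and the PROMPT regions of Krt5 and Krt19, which hold a few counts per library.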
